A study of Oryza sativa with 6 samples.

Results

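Calcium sensors and the protein kinases tied to them were compared between shoot tips of rice *Osrdr1* seedlings and of their sibling wild type (WT). The genes were taken by name: calmodulins (CAM), calmodulin-like proteins (CML), calcineurin B-like proteins (CBL), CBL-interacting protein kinases (CIPK) and calcium-dependent protein kinases (CPK or CDPK), each followed by digits, in the array annotation or in the rice gene table. These names covered 92 genes, of which 77 had a probe set matched to them alone, out of 17905 genes with such a probe set. They were 3 of 3 CAM, 23 of 26 CML, 7 of 9 CBL, 24 of 30 CIPK and 20 of 24 CPK genes. The other 15 (CML2, CML21, CML22, CBL1, CBL7, CIPK3, CIPK9, CIPK13, CIPK15, CIPK27, CIPK33, CPK11, CPK14, CPK25 and CPK28) were not analysed here. A gene with several probe sets was represented by that of highest mean signal over the 6 arrays.

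Plant cells pass on many stimuli, such as light, cold, salt, drought, low potassium and attack by microbes, as brief rises of free Ca2+ in the cytosol. Calmodulins and calmodulin-like proteins bind Ca2+ through EF hands, a helix-loop-helix fold, and then change the activity of other proteins. CBL proteins are a plant family of such sensors that recruit CIPK kinases to a membrane, where the pair phosphorylates ion channels and transporters. CPK proteins join an EF-hand sensor and a kinase in 1 chain, so that Ca2+ switches them on directly.

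The homozygous *Osrdr1* mutant carried the retrotransposon *Tos17* in an exon of *OsRDR1*, which encodes an RNA-dependent RNA polymerase that makes double-stranded RNA. Mutant and WT of the cultivar Hitomebore segregated from selfed heterozygotes of 1 insertion line, and no second mutant allele was included. Seeds of either genotype germinated for 2 days in dark water kept at 28 °C. The young seedlings were harvested after roughly 48 h of greenhouse growth (26 °C, days of 16 h light and 8 h dark), without a stress treatment. RNA of 3 biological replicates per genotype was hybridized to 1 Affymetrix Rice Genome Array each. How many seedlings made up a replicate, and whether replicates were grown apart, the sources used here do not say, so the p-values measure the spread between these samples only.

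Values are log2 signals as the authors normalized them. The median array value lay between 4.88 and 4.97, the number of arrays limits the precision, and a probe set near or under those medians was not known to be above background. No gene named *OsRDR1* was matched to a probe set, so the genotype labels could not be checked on the arrays. A gene was called different when its limma p, adjusted by the Benjamini-Hochberg method over all probe sets, was under 0.05. Of 4 green leaf markers, OsrbcS and PORA were called higher in *Osrdr1*, and the log2 of the summed linear signal of the list was 15.10 to 15.11 in *Osrdr1* against 14.58 to 14.79 in WT, while RBCS1 lay under the array medians. Of 4 shoot meristem markers, OSH71 was called lower, and the sum, in the same unit, was 6.63 to 7.72 against 8.13 to 9.57. OSH43 lay under the array medians, as did OSH71 on *Osrdr1* 2 and *Osrdr1* 3 (4.73 and 4.42). OSH1 overlapped between genotypes (6.31, 4.62 and 3.71 in *Osrdr1* against 7.63, 8.29 and 6.15 in WT). The sums were also higher in *Osrdr1* for 2 root markers (9.47 to 9.50 against 8.69 to 8.73), of which Lsi1 was called and Lsi2 lay under the array medians, and for 5 seed endosperm markers (7.47 to 7.70 against 7.01 to 7.33), of which GLUA-2 was called and the others lay under the medians. Limma called 0 of 4 low oxygen markers (PDC2 alone had an unadjusted p under 0.05, at 0.012), and their sum was 11.94 to 12.01 in *Osrdr1* and 12.09 to 12.59 in WT. The sum was carried by PDC2, and WT 2 stood apart from the other 5 arrays in PDC1 (8.55 against 3.74 to 4.14) and Adh2 (9.36 against 6.23 to 7.40). Without WT 2, limma called 1 of the 77 genes described here, CML1. In whole shoot tips, fewer cells of a type and less RNA per cell cannot be told apart, and the part of tissue makeup in the results that follow was not tested.

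Few genes of this set were called, as was so over all genes. CML1, CIPK1, CIPK7 and CIPK31 were called higher in *Osrdr1*, which is 4 of 77 genes (5.19%), beside 3.44% of all 17905 genes. Calls depended on single arrays over the whole table too: without *Osrdr1* 1 or *Osrdr1* 3 limma called 0 probe sets of any gene (6343 and 6421 at an unadjusted p under 0.05) and without WT 1 it called 1, which applies to the called markers and other calcium genes as well. Limma called 0 of 77 lower, beside 1.13% of all genes. At an unadjusted p under 0.05, 16 genes (20.8%) were higher and 5 (6.49%) lower, beside 16.4% and 11.3% of all genes. The median log2 fold change, *Osrdr1* minus WT, was 0.058 over the 77 genes, of which 48 were above 0 and 29 below, and 0.004 over all genes, of which 51.0% were above 0. The shares of genes called higher, or higher at an unadjusted p, were thus near those of all genes. On the log2 scale, 46 of the 77 differed by less than 0.2, beside 11327 of all 17905 genes.

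By family, the median log2 fold change was 0.122 in CML (15 of 23 genes above 0), 0.075 in CIPK (15 of 24), 0.052 in CPK (14 of 20), -0.078 in CBL (3 of 7) and -0.080 in CAM (1 of 3). Of the 4 called genes, 3 were CIPK kinases (12.5% of that family) and 1 a CML sensor (4.35%), beside 3.44% of all genes called higher. Limma called 0 genes in CAM, CBL and CPK, which held 3, 7 and 20 genes. At an unadjusted p under 0.05 there were 7 higher and 1 lower CML genes (30.4% and 4.35%) and 7 higher and 2 lower CIPK genes (29.2% and 8.33%). There were also 2 higher and 1 lower CPK genes and 1 lower CBL gene (14.3%). Of all genes, 16.4% were higher and 11.3% lower. The CML and CIPK shares were thus above that of all genes on the higher side and below it on the lower side. The CPK shares were below it on both sides. The members of a family share their arrays, so these medians and shares are descriptions and were not tested.

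**Figure D1:**
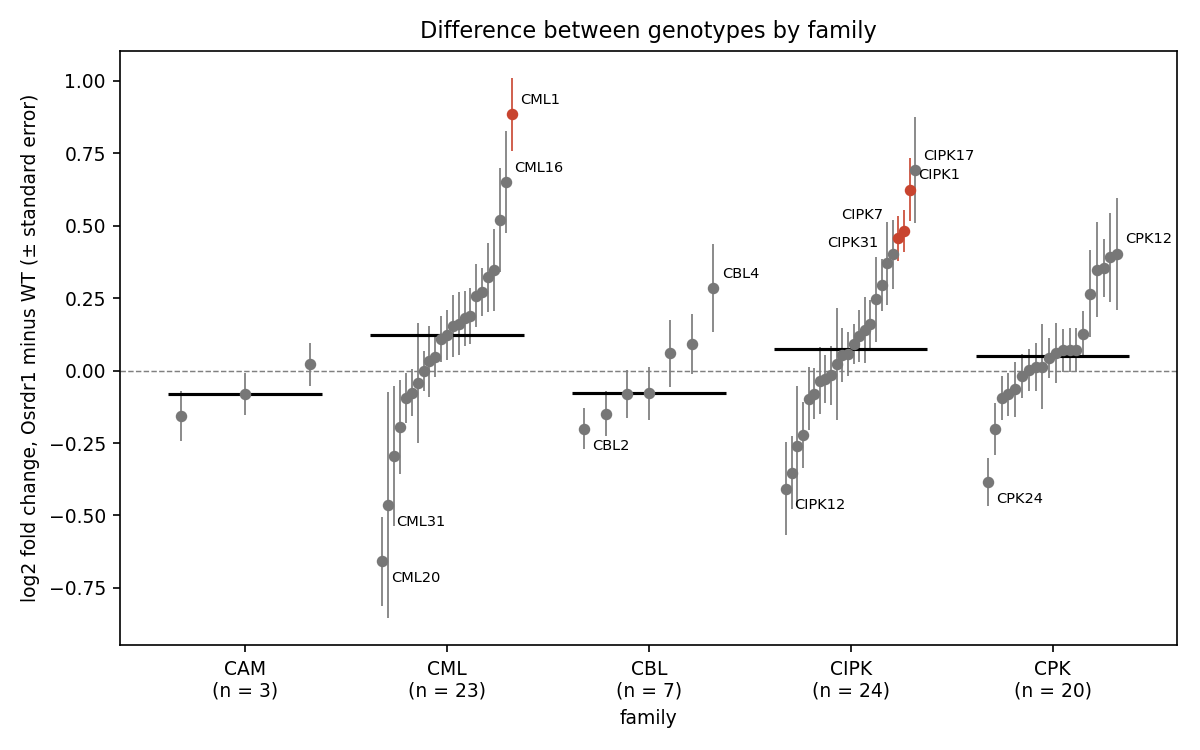
Log2 fold change (*Osrdr1* minus WT) of each of the 77 genes, with its limma standard error, by family; thick black lines mark family medians and red points the genes called at an adjusted p under 0.05. The 4 called genes, CML1, CIPK1, CIPK7 and CIPK31, all lie above 0, and the medians run from -0.080 in CAM to 0.122 in CML.

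CML1, in rice a calmodulin variant with a long tail that can be prenylated, had the largest log2 fold change of the 77 genes. Its log2 signal was 10.06, 10.24 and 10.34 on the *Osrdr1* arrays and 9.26, 9.56 and 9.17 on the WT arrays. The groups did not overlap, and the lowest *Osrdr1* array lay 0.50 above the highest WT array. The means were 10.22 ± 0.14 and 9.33 ± 0.21 (SD, n = 3 each), a log2 fold change of 0.88 ± 0.13 (SE) or 1.85-fold (limma adjusted p = 0.0232). The call changed with the arrays used. With 1 array left out, CML1 stayed called without WT 2 (adjusted p = 0.0453) or WT 3 (0.0428), and was not called without *Osrdr1* 1 (0.0837), *Osrdr1* 2 (0.0993), *Osrdr1* 3 (0.132) or WT 1 (0.0991), while the log2 fold change ran from 0.81 to 1.002.

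CIPK1 belongs to the kinases that CBL sensors recruit, and its Arabidopsis namesake works with CBL sensors at the plasma membrane. The CIPK1 log2 signal was 11.10, 11.27 and 10.91 in *Osrdr1* and 10.57, 10.41 and 10.43 in WT. All 3 *Osrdr1* arrays were above all WT arrays, by 0.33 at the nearest pair. CIPK1 rose by 0.62 ± 0.11 (SE) on the log2 scale, or 1.54-fold (limma adjusted p = 0.0399).

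CIPK7, studied in rice for chilling tolerance, read 11.22, 11.10 and 11.15 in *Osrdr1* and 10.71, 10.64 and 10.68 in WT on the log2 scale. The replicates of a genotype lay close together and the gap between the genotypes was 0.39. CIPK7 rose by 0.48 ± 0.07 (SE), or 1.40-fold (limma adjusted p = 0.0272). CIPK31, a rice kinase studied in germination and seedling growth under stress, gave 9.57, 9.60 and 9.61 in *Osrdr1* and 9.17, 9.03 and 9.20 in WT. Here too the groups were apart, with a gap of 0.37, and the rise was 0.46 ± 0.08 (SE), or 1.37-fold (limma adjusted p = 0.0368). When an array was left out, CIPK1 was called in no fit (adjusted p 0.0727 to 0.164), and CIPK7 and CIPK31 were called only without WT 3 (0.0405 for both). Without *Osrdr1* 1, *Osrdr1* 2, *Osrdr1* 3, WT 1 or WT 2 the adjusted p was 0.0788 to 0.134 for CIPK7 and 0.115 to 0.164 for CIPK31. The log2 fold changes in those 6 fits stayed between 0.54 and 0.72 for CIPK1, 0.45 and 0.51 for CIPK7, and 0.41 and 0.49 for CIPK31.

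**Figure D2:**
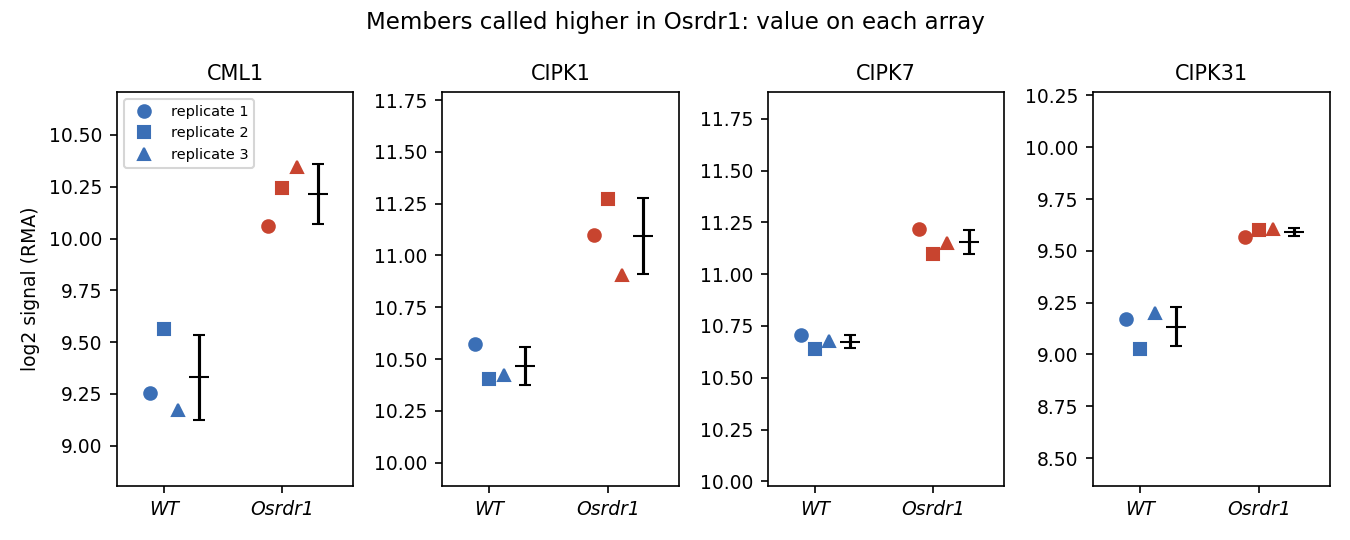
Log2 signal of the 4 called genes on each array, with the genotype means and SD (n = 3 each). In CML1, CIPK1, CIPK7 and CIPK31 every *Osrdr1* array lies above every WT array, by 0.50, 0.33, 0.39 and 0.37.

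Calmodulins, the general Ca2+ sensors of the cell, were far above the median signal on all arrays, and limma called 0 of the 3 genes. The count was also 0 at an unadjusted p under 0.05. CAM1, under which the gene table lists CAM1-1, CAM1-2 and CAM1-3, read 12.36, 12.41 and 12.33 in *Osrdr1* and 12.44, 12.40 and 12.49 in WT. The CAM1 groups overlapped, with a log2 fold change of -0.08 (limma adjusted p = 0.704). CAM2 read 12.05, 12.14 and 11.96 against 12.12, 12.20 and 12.31, with overlap again and a log2 fold change of -0.16 (limma adjusted p = 0.496). CAM3 read 13.00, 12.96 and 13.00 against 13.04, 12.96 and 12.88, a log2 fold change of 0.02 (limma adjusted p = 0.937). The limma standard errors were 0.07 for CAM1, 0.09 for CAM2 and 0.08 for CAM3. Calmodulin genes encode near-identical proteins, and how far their probe sets tell them apart was not tested.

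Among the other calmodulin-like genes, CML16 and CML18 had the largest positive log2 fold changes after CML1, and neither was called. CML16, linked in rice to abscisic acid and drought responses, read 8.98, 9.19 and 9.35 in *Osrdr1* and 8.90, 8.36 and 8.31 in WT. The groups did not overlap, but WT 1 lay within 0.07 of the lowest *Osrdr1* array, and the log2 fold change was 0.65 ± 0.18 (SE; limma adjusted p = 0.125). CML18 read 9.43, 9.18 and 9.79 against 9.12, 9.04 and 8.67, again without overlap, with a log2 fold change of 0.52 (limma adjusted p = 0.230). CML9, CML10 and CML29 were likewise higher on all 3 *Osrdr1* arrays, with log2 fold changes of 0.32, 0.19 and 0.27 and limma adjusted p of 0.271, 0.449 and 0.176.

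CML20 had the most negative log2 fold change of the set. Its log2 signal was 4.43, 4.44 and 4.65 in *Osrdr1*, under the array medians, and 5.43, 5.22 and 4.84 in WT, so that the *Osrdr1* level was not known to be above background. The groups did not overlap, and WT 3, also under the medians, was the nearest to the *Osrdr1* arrays. The log2 fold change was -0.66 ± 0.15 (SE; limma adjusted p = 0.0841), and without WT 3 it was -0.82 and called (adjusted p = 0.0293). CML20 was not called with any other array left out (0.2 to 0.277). The same held with centred arrays (0.118), the quantile normalization repeated (0.109) and a replicate block (0.21), while 1 probe set per gene gave a call (0.0432). CML31 was the only gene of the 77 whose replicates of 1 genotype spanned at least 1 on the log2 scale. It read 5.47, 4.80 and 3.81 on the WT arrays and 3.98, 4.10 and 4.62 on the *Osrdr1* arrays, with full overlap (limma adjusted p = 0.684). All CML31 values but that of WT 1 lay under the array medians. In CML15 only WT 1 stood apart, with 5.52, where the remaining 5 arrays gave 4.53 to 4.64, and the log2 fold change was -0.30 (limma adjusted p = 0.677). Those 5 arrays too lay under the array medians, so most CML15 and CML31 values were not known to be above background. CML7 and CML13, with strong signal, differed by -0.001 and -0.08 (limma adjusted p = 0.997 and 0.754). Of the 23 CML probe sets, 7 had a mean under the median of all probe sets.

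CBL sensors sit on the plasma membrane or the vacuole membrane and bring their kinases there. Limma called 0 of the 7 measured, and 1, CBL2, was lower at an unadjusted p under 0.05 (14.3%, beside 11.3% of all genes). CBL2, a vacuole membrane sensor in Arabidopsis, read 9.66, 9.72 and 9.67 in *Osrdr1* and 9.94, 9.86 and 9.85 in WT. Every *Osrdr1* array was below every WT array, by a small margin of 0.13, and the log2 fold change was -0.20 ± 0.07 (SE; limma adjusted p = 0.245). CBL6 was also lower on all 3 *Osrdr1* arrays (10.62, 10.55 and 10.63 against 10.81, 10.78 and 10.66), with a gap of 0.03 and a log2 fold change of -0.15 (limma adjusted p = 0.462). CBL4, the SOS3 sensor of the salt pathway, read 5.55, 5.19 and 5.72 against 5.31, 5.31 and 4.999, with overlap and a log2 fold change of 0.28 (limma adjusted p = 0.483). CBL10, the shoot partner in that pathway in Arabidopsis, and CBL3 had log2 fold changes of 0.09 and 0.06 (limma adjusted p = 0.778 and 0.878). Over the 7 measured CBL genes the log2 fold changes ran from -0.20 to 0.28.

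In the CIPK family, 9 of 24 genes were higher on all 3 *Osrdr1* arrays (37.5%, beside 19.4% of all genes) and 1 was lower on all 3 (4.17%, beside 15.2%). Over the 77 genes these counts were 18 (23.4%) and 5 (6.49%). With the quantile normalization repeated, a setting added after the data were seen, they were 21 and 10. The share of all genes in that setting is not given here, so the counts of 21 and 10 have no background beside them. Apart from the 3 called kinases, the 9 were CIPK2, CIPK17, CIPK18, CIPK19, CIPK24 and CIPK25. CIPK17 had the largest log2 fold change of the family. It read 8.38, 8.85 and 8.67 in *Osrdr1* and 8.08, 7.57 and 8.18 in WT, so the groups were apart by 0.20, but the replicates of each genotype were spread, and the log2 fold change of 0.69 ± 0.18 (SE) was not called (limma adjusted p = 0.122). CIPK18, CIPK19 and CIPK25 had log2 fold changes of 0.30, 0.37 and 0.40 (limma adjusted p = 0.171, 0.296 and 0.160). CIPK24, the SOS2 kinase that phosphorylates the Na+/H+ antiporter SOS1, differed by 0.16 (limma adjusted p = 0.462). For CIPK2, with log2 fold change 0.09, the gap between genotypes was 0.02 (limma adjusted p = 0.643). Another CIPK2 probe set, under the array medians, was lower on all 3 *Osrdr1* arrays (-0.11, limma adjusted p = 0.626). A further CIPK2 probe set overlapped between genotypes (0.17, limma adjusted p = 0.799).

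The lower side of the family held CIPK12 and CIPK6. CIPK6 read 8.96, 8.52 and 8.93 in *Osrdr1* and 9.18, 9.17 and 9.11 in WT. The groups did not overlap, *Osrdr1* 2 was the lowest array, and the log2 fold change was -0.35 ± 0.13 (SE; limma adjusted p = 0.249). CIPK12 read 5.79, 5.20 and 5.56 against 6.09, 5.90 and 5.79, where the nearest arrays overlapped by 0.01, and its log2 fold change was -0.41 (limma adjusted p = 0.297). CIPK14, a kinase of rice defence responses, varied most among the WT arrays, at 9.32, 9.90 and 9.10, and its log2 fold change was 0.02 (limma adjusted p = 0.977). CIPK21 read 5.245 on 4 of the 6 arrays, 2 of each genotype, 5.54 on *Osrdr1* 3 and 4.81 on WT 3.

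CPK genes had 0 of 20 called by limma, with 2 higher (CPK4 and CPK9) and 1 lower (CPK24) at an unadjusted p under 0.05. Both counts were smaller shares than those over all genes, 16.4% on the higher and 11.3% on the lower side. CPK24, which acts in the cold response of rice, was the nearest to a call. It read 9.84, 9.74 and 9.78 in *Osrdr1* and 10.30, 10.10 and 10.11 in WT. All *Osrdr1* arrays lay below all WT arrays, by 0.26, and the log2 fold change was -0.39 ± 0.08 (SE; limma adjusted p = 0.0709). CPK24 was called in the fits that left out dim probe sets (adjusted p = 0.0442), used a variance trend (0.0286), repeated the quantile normalization (0.0355) or held only 1 probe set per gene (0.0294). CPK24 was not called with centred arrays (0.143), robust eBayes (0.0749) or a replicate block (0.177). Leaving out any single array also gave no call (0.0773 to 0.233). It had the only negative log2 fold change of this family with separate groups.

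CPK4, tied to salt and drought tolerance in rice, read 7.93, 8.10 and 8.21 against 7.82, 7.74 and 7.62. The groups were apart by 0.10 and the log2 fold change was 0.35 ± 0.10 (SE; limma adjusted p = 0.144). CPK9, with a gap of 0.01, and CPK12, a rice kinase of salt tolerance whose groups overlapped, had log2 fold changes of 0.39 and 0.40 (limma adjusted p = 0.3 and 0.421). Of the 20 CPK genes, 3 were higher on all 3 *Osrdr1* arrays, beside 19.4% of all genes, and 1 was lower, beside 15.2%. The third higher gene, CPK6, had a log2 fold change of 0.13, a gap of 0.03 and signal under the array medians. Another CPK6 probe set, likewise under the medians, overlapped between genotypes (-0.02, limma adjusted p = 0.966). CPK21, also under the medians, had -0.20 (limma adjusted p = 0.371). CPK19 and CPK3, with strong signal, had 0.07 and -0.09 (limma adjusted p = 0.756 and 0.674), and the *Osrdr1* arrays of CPK23 read 9.77 each with a log2 fold change of 0.002. The CPK replicates were close together, with a median SD of 0.08 in either genotype.

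**Figure D3:**
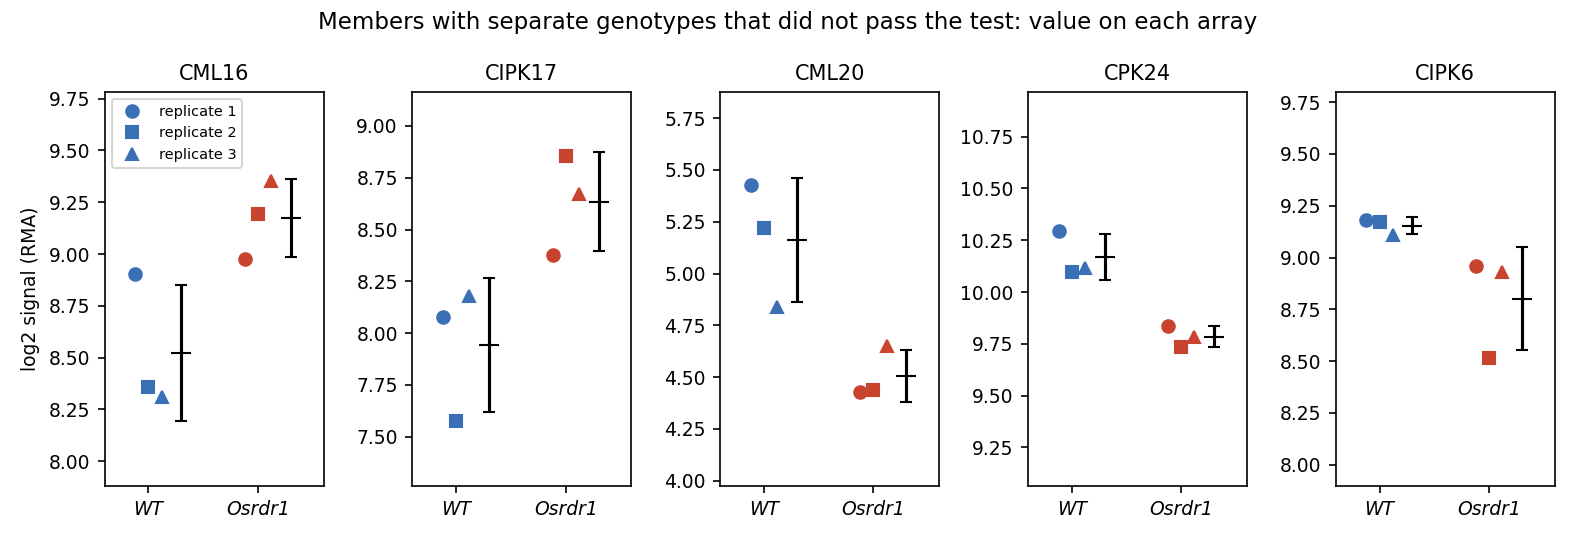
Log2 signal by array of genes whose genotype groups did not overlap but which were not called at an adjusted p under 0.05. Points are arrays and bars the mean and SD (n = 3 each); CML16 and CIPK17 are higher and CML20, CPK24 and CIPK6 lower on every *Osrdr1* array, by 0.07, 0.20, 0.19, 0.26 and 0.15 at the nearest pair.

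Of the 77 genes, 15 had more than 1 probe set, and in 9 of the 15 all probe sets had the same sign. The called kinases CIPK7 and CIPK31 each had a dimmer probe set that was not called: that of CIPK7 read 6.48, 5.74 and 6.19 in *Osrdr1* and 5.68, 5.81 and 4.77 in WT (log2 fold change 0.72, limma adjusted p = 0.331), and that of CIPK31 differed by 0.15 (0.594). Both had the same sign as the probe set that stood for the gene. CIPK23, which with CBL1 activates the potassium channel AKT1 in rice, differed between its probe sets. The set with the higher mean gave 0.06 (limma adjusted p = 0.815), and the other read 8.59, 8.995 and 8.78 in *Osrdr1* and 8.30, 8.19 and 7.71 in WT, with no overlap and a log2 fold change of 0.72 (0.0907). A dimmer probe set of CIPK32 was called at 0.58 (limma adjusted p = 0.0385), with all 6 values under the array medians, while the set used for CIPK32 gave 0.05 (0.859). In CML4 the same contrast was 0.15 on the set used (limma adjusted p = 0.614) and 0.44 on a probe set that can bind several transcripts (0.0806). Which transcript of these genes each probe set reads was not tested. Among the probe sets used, those of CIPK11, CPK5, CPK12 and CPK18 may bind several transcripts and those of CIPK2, CIPK16, CBL9 and CML13 may cross-hybridize, by the class in their names, so the levels of these genes are uncertain.

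Spread between replicates was larger in WT than in *Osrdr1* for 48 of the 77 genes. Their median SD was 0.106 in WT and 0.092 in *Osrdr1*, beside 0.121 and 0.092 over all genes. WT 3 was the lowest of the 6 arrays for 28 genes (36.4%), beside 36.1% of all genes, and WT 2 for 17 (22.1%, beside 12.1%). *Osrdr1* 2 was the lowest for 12 genes (15.6%, beside 27.0%). WT 1 was the highest array for 24 genes and *Osrdr1* 3 for 21, and the highest array was not counted over all genes. The share of low values on WT 3 was thus close to that over all genes.

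**Figure D4:**
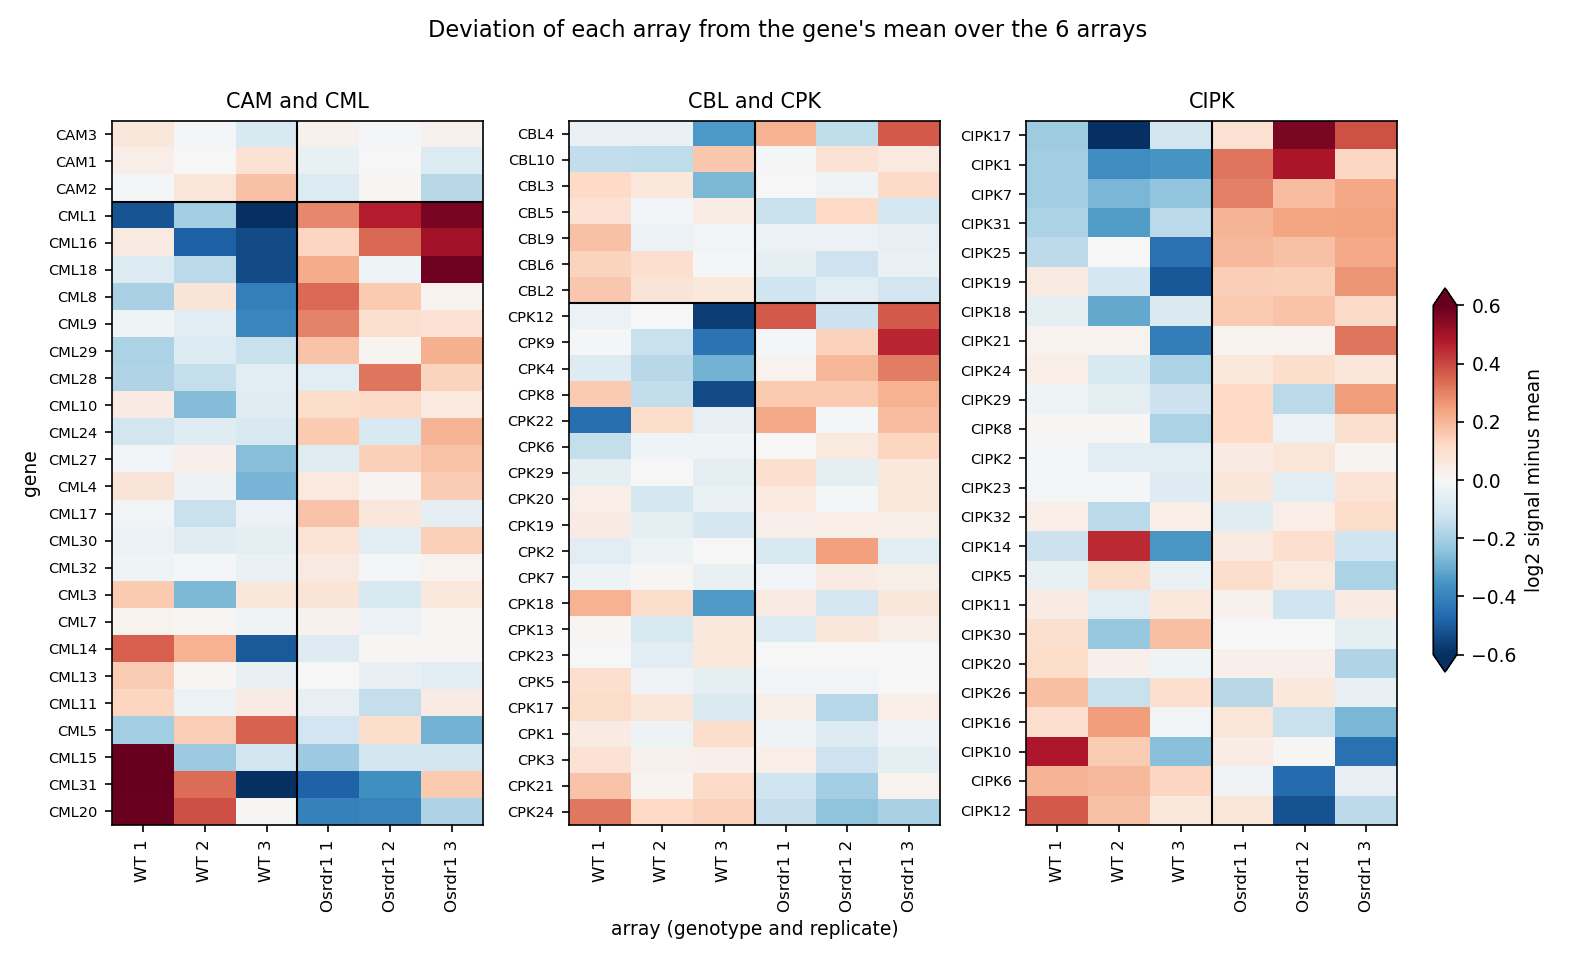
Deviation of each array from the mean of the gene over the 6 arrays, on the log2 scale, for the 77 genes in 3 panels (red above, blue below the mean; the colour scale ends at 0.6 either way). The WT and *Osrdr1* sides of the rows of CML1, CIPK1, CIPK7 and CIPK31 are of opposite colour. CML15 carries a strong value on WT 1, and CML31 strong values of opposite colour on WT 1 and WT 3.

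Genes of the set that lie next to each other in the gene table gave mixed pairs. CML9 and CAM2 had log2 fold changes of 0.32 and -0.16, CIPK30 and CIPK12 -0.04 and -0.41, CIPK29 and CIPK2 0.14 and 0.09, and CIPK32 and CML3 0.05 and 0.03. The mean signals of CIPK30 (3.63) and CML3 (4.85) were under the array medians, so their small differences may be those of background. As a description over the 6 arrays, which include the genotype difference itself, the genes of the set with the pattern most like CML1 were CIPK25 (Pearson r = 0.92), CPK4 (0.92), CIPK7 (0.91), CML29 (0.89) and CIPK31 (0.87). Among 2459 genes with a name, the highest r with CML1 belonged to E37 (0.9902), OsTATC (0.989), CLPC2 (0.9887), GLO5 (0.9877) and gcs (0.9869). Of these 5, GLO5 was called higher, by 0.60 on the log2 scale (limma adjusted p = 0.0342), and the others were not called. The points share 6 arrays in 2 genotypes, so a high r is common among genes that differ between the genotypes.

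Of 71 other genes with a probe set, taken by name for a possible tie to calcium signalling, 2 were called higher (2.82%) and 1 lower (1.41%). Of all genes, 3.44% were called higher and 1.13% lower. The list held 55 protein phosphatases 2C, taken by family name, of which only a part bind and oppose CIPK kinases. The other 16 were pumps, exchangers, channels, targets and the like. Both genes called higher were phosphatases, and of the 16 others 0 were called higher and 1 lower. OsPP2C01 read 9.68, 9.81 and 9.77 in *Osrdr1* and 9.27, 9.38 and 9.32 in WT and rose by 0.43 (limma adjusted p = 0.0411). OsPP2C27 read 8.51, 8.96 and 8.84 against 8.16, 7.89 and 8.11 and rose by 0.72 (limma adjusted p = 0.0467). Both phosphatases were higher on all 3 *Osrdr1* arrays. GLR3.1, a glutamate receptor-like channel, read 9.55, 9.45 and 9.50 against 9.90, 9.84 and 9.89, below WT on all arrays, and fell by 0.38 (limma adjusted p = 0.0467).

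The remaining genes of this list were not called. The potassium channel AKT1, a target of CBL-CIPK pairs, read 8.32, 8.35 and 8.53 in *Osrdr1* and 8.04, 7.87 and 7.60 in WT. Its groups did not overlap, and the log2 fold change was 0.57 ± 0.13 (SE; limma adjusted p = 0.0751). For the potassium transporter HAK5, the Ca2+ pump ACA8 and the vacuolar channel OsTPC1 the log2 fold changes were 0.30, 0.28 and 0.01 (limma adjusted p = 0.198, 0.184 and 0.97). For CRT1, a Ca2+-binding chaperone of the endoplasmic reticulum, and CCAMK, the kinase of root symbiosis that reads Ca2+ and calmodulin, they were -0.20 and -0.26 (limma adjusted p = 0.239 and 0.433). The median log2 fold change was 0.076 over the 71 genes, 0.082 over the 55 phosphatases and 0.044 over the 16 others.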

How the data were processed

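The authors processed the scans with RMA in Affymetrix Expression Console (versions not given in the sources used here) and deposited log2 values, background corrected, with array quantiles equalized and probes summarized per probe set. The table held 57381 probe sets, and 187 control and reporter probe sets were left out. For the other 57194, lmFit and eBayes of limma 3.58.1 (R 4.3.3) were run on genotype only, 3 arrays against 3. The fit had 4 residual and 3.32 prior degrees of freedom, and p-values were adjusted over all of them (Benjamini-Hochberg). No fold minimum and no filter on dim probe sets was used. The methods of the study name no test for the arrays. An exact two-sided permutation test of 3 against 3 cannot go under 0.10. The scripts were tested on simulated data. Tables and plots were made in Python 3.11.15.

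Gene names came from the annotation of the array and from a RefSeq rice gene table. Of the probe sets fitted, 22436 matched 1 gene, 95 several and 34663 none, and only the first were used. The members and lists were chosen with earlier results of these data known. Genes given with values in the text are CML1, the called genes, the 2 largest log2 fold changes in each direction and the 2 highest mean signals of each family, and genes with a range of at least 1 within a genotype. CML9, CML10, CML15, CML18, CML29, CIPK14, CIPK18, CIPK19, CIPK21, CIPK23, CIPK24, CIPK25, CIPK32, CPK4, CPK6, CPK23, CML4, the uncalled genes of other calcium signalling and the neighbouring pairs were named after their values were seen. Groups do not overlap where all 3 values of a genotype exceed the 3 of the other. No sequences were used.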

Additional observations from a re-analysis of the deposited data

How the results depend on the processing

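The number of genes called higher was 4, and it became 0 with a replicate block, 2 with a log2 fold change of at least 0.5, and 0 to 3 when each array was left out. The number called lower was 0, and it became 2 with 1 probe set per gene (CML20 and CPK24). It became 1 (CPK24) with dim probe sets left out, with a variance trend or with the quantile normalization repeated. It was 0 to 1 when each array was left out. Calls over all genes rose with 1 probe set per gene, from 616 to 1419 higher and from 202 to 648 lower of 17905. In that fit the set stayed at 4 higher, and its shares called higher and lower were both under those of all genes. With the replicate block 0 of all probe sets were called by limma, against 6860 at an unadjusted p under 0.05. Samples with the same number did not deviate together (r = 0.15, -0.16 and -0.31), so the numbers were not taken to pair them. Over all probe sets the calls were 903 higher and 290 lower, 1045 and 180 with centred arrays, and 964 and 626 with the quantile normalization repeated. They were 1680 and 777 with a variance trend, and 1415 and 566 of 28597 probe sets with dim ones left out. Leaving out *Osrdr1* 1 or *Osrdr1* 3 gave 0 calls, WT 1 gave 1, *Osrdr1* 2 gave 140 and 21, WT 2 gave 159 and 23, and WT 3 gave 803 and 421.

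With dim probe sets left out, the family medians were 0.157 in CML, -0.01 in CBL, 0.12 in CIPK and 0.014 in CPK, and that of CAM stayed at -0.08. The CPK median was 0.086 with centred arrays and 0.005 with the quantile normalization repeated. With an array left out, medians ran from 0.074 to 0.145 in CML, from -0.105 to -0.013 in CBL, from 0.069 to 0.115 in CIPK, from 0.043 to 0.06 in CPK and from -0.103 to -0.057 in CAM. Genes lower on all 3 *Osrdr1* arrays numbered 10, not 5, with the quantile normalization repeated, a setting chosen after seeing the data. The share of all genes in that setting is not given here. Of 375 values of 27 named genes under the alternatives, 369 kept their direction. The exceptions were CBL3 and CAM3 without WT 3, and CML7 with centred arrays or without *Osrdr1* 2, WT 1 or WT 2. CIPK31 was not called with the quantile normalization repeated (0.41, adjusted p = 0.0546). The causes were not tested. Levels of dim probe sets and small differences are limited by 3 arrays per genotype.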
